A study of Caenorhabditis elegans with 18 samples.

Results

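The C-type lectin genes of Caenorhabditis elegans carry the symbol clec and a number in the WormBase nomenclature. They were taken as a family by that symbol alone, from the Ensembl 115 annotation of the genome build WBcel235. Of 240 genes with such a symbol, among 46748 gene identifiers in the count tables, 90 reached a mean of at least 0.5 CPM (counts of a gene scaled to the same total in each library) in at least 1 of 4 groups of libraries, and these 90 are the members described here. The other 150 stayed below that level, and 24 of them had no count in any library. The members nearest the limit were clec-238, clec-75 and clec-26, with highest group means of 0.527, 0.577 and 0.588 CPM, and the genes just below it were clec-104, clec-144 and clec-31, with 0.472, 0.436 and 0.434 CPM. The limit uses the level in the highest group, not a difference between groups, but a gene that is high in 1 group only passes it through that group.

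A C-type lectin domain is a compact protein fold that in vertebrates often binds sugars with the help of calcium. Nematodes have a large set of genes for proteins with this fold, and many of those proteins are predicted to be secreted. Several clec genes are known to be active in the intestine and to be induced by bacterial infection, in part through the p38 MAP kinase pathway of TIR-1, NSY-1, SEK-1 and PMK-1, while other members of the family are used in the germ line and in other tissues.

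The 4 groups were the mutant strain CF2473, ire-1(ok799), after cold (n = 3), ire-1(ok799) control (n = 3), the wild-type strain N2 (WT) after cold (n = 6) and WT control (n = 6). The allele ok799 is a deletion in ire-1, the gene for the endoplasmic reticulum stress sensor IRE-1, in every cell of the worm. All worms grew at 15 °C from the egg to day 1 of adulthood. Control worms were then collected, and cold worms were held at 2 °C for a further 24 h, so cold worms were also 24 h older, and cold and age cannot be told apart here. RNA of whole worms was sequenced after poly(A) selection, in 12 libraries of experiment 1 (replicates 1 to 3 of each group) and 6 WT libraries of experiment 2 (replicates 4 to 6), which the design text calls biological replicates. In RNA of whole worms, fewer cells of a type and less RNA per cell cannot be told apart.

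Total counts were 20621965 to 29518450 in experiment 1 and 10449794 to 16814732 in experiment 2. Reads of ire-1 itself stood at 36.6 to 63.8 CPM in the 6 ire-1 libraries and at 85.4 to 228 CPM in the 12 WT libraries, with no overlap (log2 difference -1.89 in cold, adjusted p = 0.0943, and -1.29 in control, adjusted p = 0.15, edgeR, experiment 1); counts per gene do not separate the deleted part from the rest. 4 libraries stood apart by their sperm genes. The summed level of 47 sperm markers was 1184 CPM in ire-1 cold 2, 1503 in ire-1 control 1, 336 in WT cold 2 and 1363 in WT control 1, against 10.4 to 122 CPM in the other 14 libraries, and the effect of leaving out those libraries is given with each comparison. WT control 1 also had the lowest sum of 10 oocyte and germline markers, at 2207 CPM, against 5667 to 12596 CPM elsewhere.

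The members lay on all 6 chromosomes, with 28 on IV, 25 on V, 22 on II, 6 each on I and III, and 3 on X. All 3 clec genes of chromosome X were members, against 6 of 36 on chromosome I. Mean levels over the 18 libraries ran between 0.195 and 872 CPM with a median of 2.81 CPM, and 55 members averaged under 5 CPM. The reads were concentrated in few genes: clec-87 (chromosome I, 10184462 to 10185520) took 31.9% of the summed CPM of the members, clec-63 (II, 12895638 to 12897446) 15.9%, clec-88 (II, 6365722 to 6367002) 13.7% and clec-91 (I, 9126140 to 9127101) 7.35%. Per kilobase of exon the order was clec-87 at 909, clec-63 at 336, clec-88 at 310, clec-91 at 236, clec-50 at 141, clec-150 at 103 and clec-1 at 74.6 CPM per kb.

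**Figure D1:**
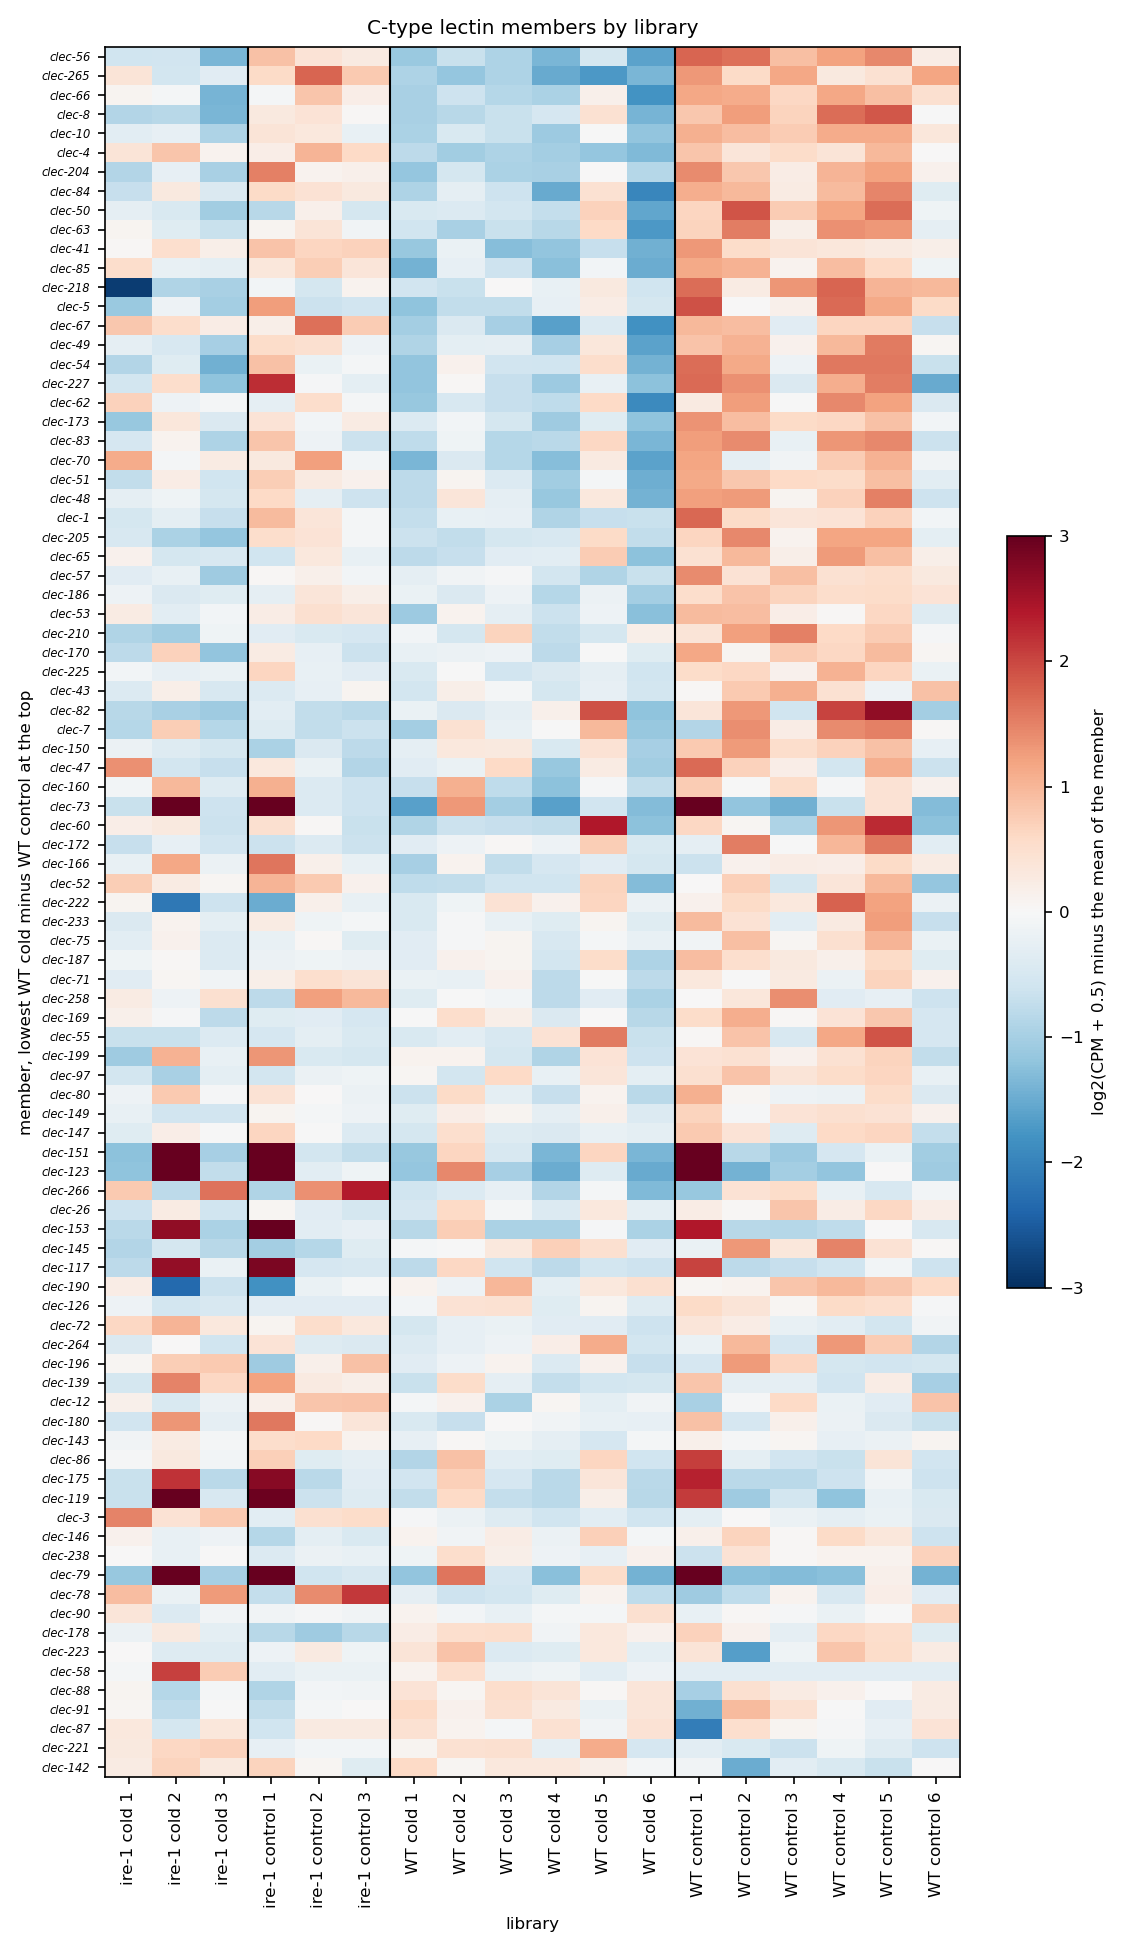
Levels of the 90 members (rows) in the 18 libraries (columns, grouped with ire-1 cold first, then ire-1 control, WT cold and WT control), as log2(CPM + 0.5) minus the mean of the member; the colours stop at 3 above and 3 below the mean. Rows run from the lowest to the highest WT cold minus WT control value, and most upper rows are blue in WT cold and red in WT control, while clec-73, clec-79 and clec-123 are dark red in WT control 1, ire-1 control 1 and ire-1 cold 2.

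In WT, C-type lectin genes were lower after 24 h at 2 °C. Of the 90 members, 64 had enough counts to be tested over the 12 WT libraries, and 26 of these fell and none rose by edgeR's quasi-likelihood test at a Benjamini-Hochberg adjusted p of 0.05. The background over all 11766 genes tested was 13.1% called, 10.4% lower and 2.7% higher. The fitted value was below 0 for 60 of the 64, against 54.7% of all genes, and the median log2 fold change of the 64 was -1.17, against -0.07 for all genes. Without a single library the number called ran from 15 to 36, and it was 15 without WT cold 1, 15 without WT cold 4, 15 without WT control 4, 16 without WT cold 3 and 16 without WT control 5. Over all genes the share called in these fits moved as well, between 6.92% and 21.2%.

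The falls were steepest for clec-265, clec-56, clec-4 and clec-8. For clec-265 (X, 3031783 to 3033117), WT cold libraries had 1.16 CPM at the lowest, 1.76 at the median and 2.39 at the highest, against 6.24, 9.68 and 13 CPM in WT control. The groups did not overlap, and the log2 fold change was -2.47 ± 0.24 (SE; adjusted p = 0.000249, edgeR). For clec-56 (V, 14474399 to 14476794), the values were 3.81, 6.04 and 8.66 CPM in WT cold, against 15.0, 32.5 and 43.5 CPM in WT control, again with every cold library below every control library. Its log2 fold change was -2.38 ± 0.30 (adjusted p = 0.000643, edgeR).

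The neighbours clec-4 (II, 12578331 to 12581113) and clec-8 (II, 12575691 to 12578061) lie on the same strand of chromosome II, and both were low after cold. clec-4 had 0.43, 0.639 and 0.836 CPM in WT cold at the lowest, median and highest library, against 1.82, 2.69 and 4.03 CPM in WT control, a log2 fold change of -2.23 ± 0.28 (adjusted p = 0.00063, edgeR). All 6 cold libraries were below all 6 control libraries. clec-8 had 0.43, 0.968 and 2.86 CPM in WT cold, against 1.95, 4.6 and 8.45 CPM in WT control, and 1 cold library, WT cold 5, reached into the control range. Its log2 fold change was -2.14 ± 0.46 (adjusted p = 0.00967, edgeR). Both genes are near 1 CPM, where counting error adds to the spread.

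Among members with more reads, clec-41 and clec-10 showed the same separation. clec-41 (V, 13134903 to 13138101), known for its part in resistance to pathogenic bacteria, had 14.7, 17.9 and 35.3 CPM in WT cold, against 46.1, 52.1 and 99.9 CPM in WT control (log2 fold change -1.51 ± 0.26, adjusted p = 0.00318, edgeR). clec-10 (II, 402678 to 404180) had 5.23, 6.96 and 12.4 CPM in WT cold, against 16, 25.4 and 27.5 CPM in WT control (-1.67 ± 0.27, adjusted p = 0.00219, edgeR). In both genes the groups did not overlap. clec-1 (V, 5700154 to 5701080) had 26.8, 31.5 and 43.7 CPM in WT cold, against 48.2, 71.7 and 168 CPM in WT control, also without overlap (-1.32 ± 0.26, adjusted p = 0.00627, edgeR).

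Further falls named by size were those of clec-204 (log2 fold change -1.91 ± 0.37, adjusted p = 0.00639), clec-66 (-1.80 ± 0.34, 0.00519), clec-5 (-1.74 ± 0.39, 0.0128) and clec-218 (-1.57 ± 0.28, 0.00379), all by edgeR. clec-57, clec-186 and clec-173 fell too, with log2 fold changes of -1.28, -1.10 and -1.51; these 3 were singled out after their values were seen. In all, 15 of the 26 calls held in each of the 12 fits that left out 1 WT library: clec-265, clec-56, clec-4, clec-8, clec-204, clec-66, clec-5, clec-10, clec-218, clec-41, clec-173, clec-85, clec-1, clec-57 and clec-186. The remaining 11 were lost in at least 5 of those fits, with an adjusted p of at most 0.131: clec-67, clec-50, clec-63, clec-84, clec-205, clec-65, clec-49, clec-225, clec-210, clec-51 and clec-170.

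clec-63 and clec-50 were the most abundant members that fell. clec-63 had 552 CPM in WT cold 5 and 110 to 242 CPM in the other 5 WT cold libraries, against 302, 738 and 1062 CPM at the lowest, median and highest WT control library, and the groups overlapped because WT cold 5 stood above WT control 3 and WT control 6. Its log2 fold change was -1.50 ± 0.41 (adjusted p = 0.03, edgeR). clec-50 (V, 19752399 to 19755368) had 39.8, 83.5 and 192 CPM in WT cold, against 109, 234 and 441 CPM in WT control (-1.53 ± 0.40, adjusted p = 0.0271, edgeR), and WT cold 5 was again the highest cold library. Both calls were lost without WT cold 1, 2, 3, 4 or 6, or without WT control 2, 4 or 5, with an adjusted p of at most 0.0839.

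clec-150 (III, 1002707 to 1006298) did not pass the test, with 54.7, 113 and 149 CPM in WT cold and 93.3, 185 and 268 CPM in WT control (-0.78 ± 0.28, adjusted p = 0.0776, edgeR), but passed it without WT cold 5 and WT control 6 together (-1.10, adjusted p = 0.00762). The 3 genes that together held 53.0% of the reads of the family, clec-87, clec-88 and clec-91, were not lower after cold. clec-87 had 756, 994 and 1122 CPM in WT cold, against 194, 830 and 1164 CPM in WT control (0.25 ± 0.30, adjusted p = 0.59). clec-88 had 371, 467 and 522 CPM in WT cold and 180, 410 and 502 CPM in WT control (0.20 ± 0.19, adjusted p = 0.47). clec-91 had 164, 236 and 284 CPM in WT cold and 68.8, 205 and 365 CPM in WT control (0.13 ± 0.28, adjusted p = 0.75, all by edgeR). All 3 were lowest in WT control 1, the library with the lowest oocyte and germline markers, and without it the fitted value of clec-91 was -0.02. The total of the family therefore changed less than most of its members: the sum over the 90 members was 2269 to 2740 CPM in WT cold and 2508 to 4656 CPM in WT control, and without those 3 genes it was 455 to 1449 CPM in WT cold and 1009 to 2627 CPM in WT control. No member was called higher in WT after cold. The highest fitted value was that of clec-142, chosen after its values were seen, at 0.92 ± 0.40 (adjusted p = 0.14, edgeR).

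**Figure D2:**
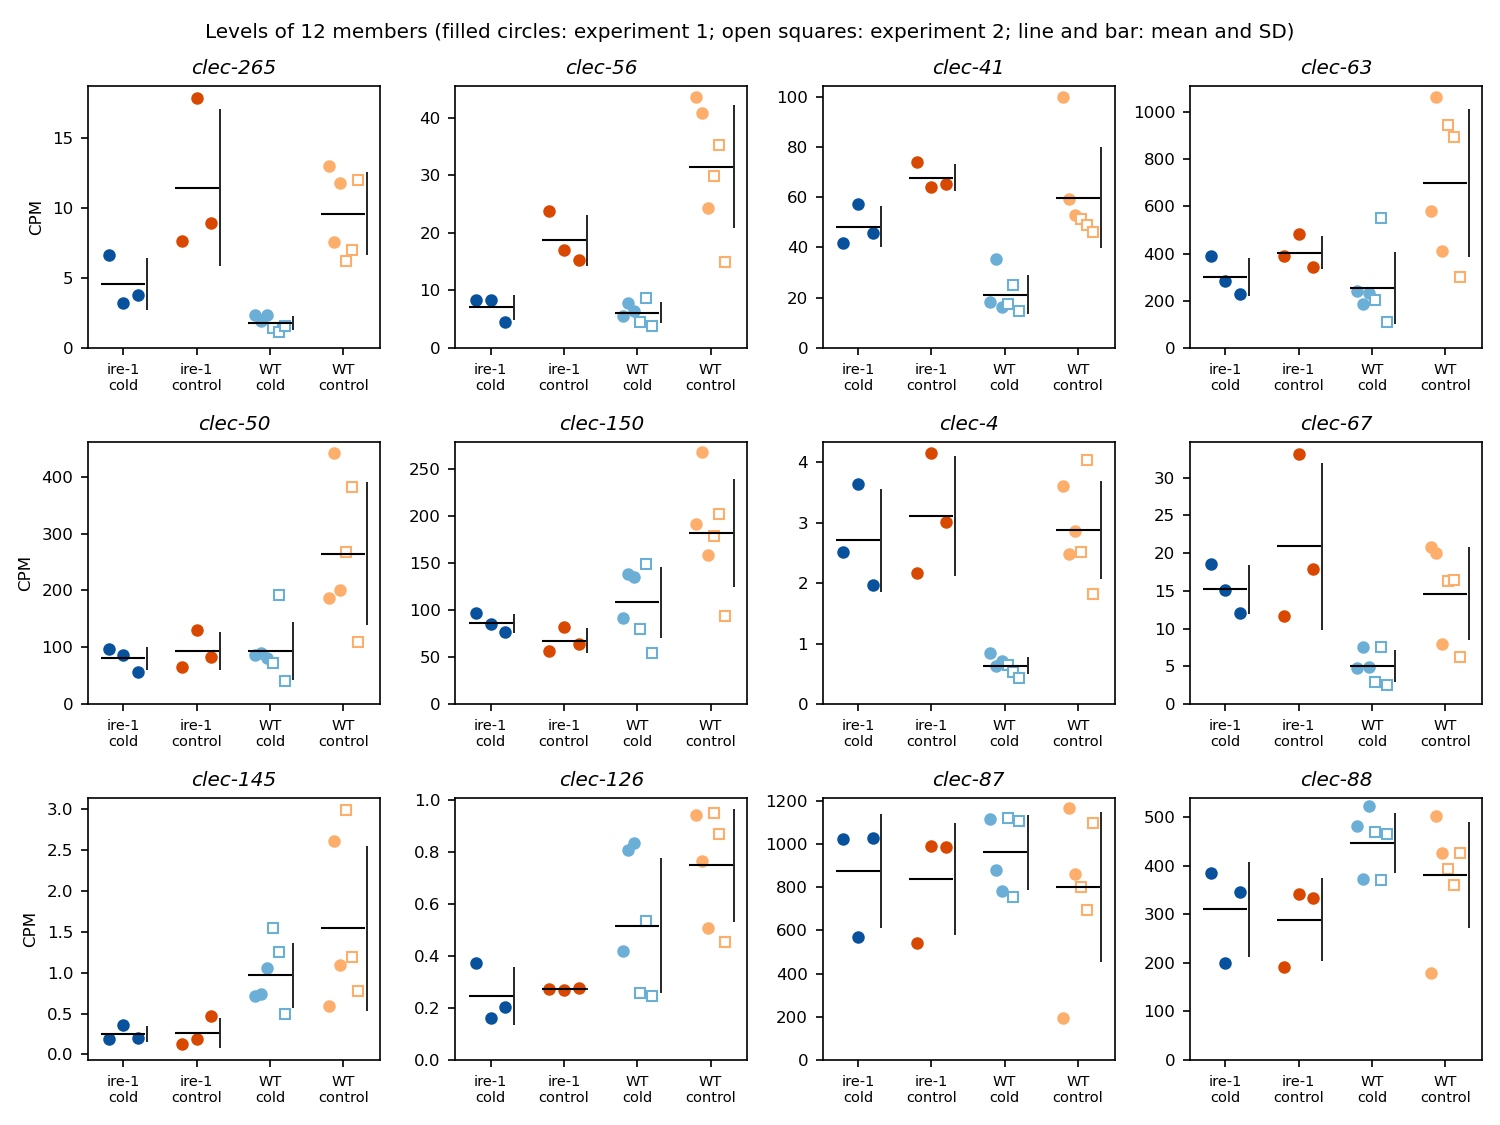
Levels in CPM of 12 members by group, from left to right ire-1 cold, ire-1 control, WT cold and then WT control; each point is a library, filled circles are experiment 1, open squares experiment 2, the line is the mean and the bar 1 SD. WT cold libraries lie below all WT control libraries for clec-265, clec-56, clec-41 and clec-4, while cold and control libraries of each strain overlap for clec-87 and clec-88.

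Of 13 clec genes that earlier work on infection had named, 11 were members, clec-39 and clec-42 being below the limit. They were lower after cold in WT in 6 cases and higher in none, with 10.4% of all genes tested called lower. Besides clec-4 and clec-41 these were clec-49, clec-65, clec-67 and clec-85, and clec-67 and clec-85 are known targets of the p38 pathway. clec-85 (IV, 2850886 to 2855456) had 5.35, 8.4 and 15.1 CPM in WT cold, against 14.7, 27.6 and 35.8 CPM in WT control (-1.50 ± 0.35, adjusted p = 0.0152, edgeR), with an overlap of WT cold 5 and WT control 6 alone. clec-67 (IV, 3922165 to 3925039) had 2.58, 4.85 and 7.59 CPM in WT cold, against 6.24, 16.4 and 20.8 CPM in WT control (-1.57 ± 0.39, adjusted p = 0.0195, edgeR), and WT control 6 lay within the cold range. clec-49 and clec-65 had log2 fold changes of -1.42 ± 0.38 (adjusted p = 0.03) and -1.07 ± 0.32 (adjusted p = 0.0419).

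The other members of the infection list were at low levels. clec-70 and clec-82 had fitted values of -2.10 ± 0.74 and -1.38 ± 0.91 without passing the test (adjusted p = 0.0773 and 0.306, edgeR), and passed it without WT cold 5 and WT control 6 together (adjusted p = 0.0171 and 0.0449). clec-60, a gene known to be induced by Gram-positive pathogens, had 5.62 CPM in WT cold 5 and at most 0.245 CPM in the other 5 WT cold libraries, against 0 to 4.98 CPM in WT control. clec-60, clec-71 and clec-86 had too few counts to be tested over the WT libraries.

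The cold response of the family was measured in both experiments. Of 61 members that could be fitted in each experiment alone, 52 were below 0 in both, 4 above 0 in both and 5 of opposite sign; over all genes 42.4% were below 0 in both. All 25 called members that could be fitted in both were below 0 in both. clec-265 had -2.24 ± 0.42 in experiment 1 and -2.57 ± 0.34 in experiment 2, and clec-56 had -2.39 ± 0.37 and -2.25 ± 0.47. With 3 libraries against 3 few of these reached the threshold. No member was called in experiment 1 alone, with 0.0239% of all genes called, and 1, clec-265, in experiment 2 alone, with 0.425% (edgeR). For 15 members, all of them called, every cold library was below every control library within each experiment, against 6.81% of all genes tested, and no member showed the opposite, against 2.24%. Among the 15, clec-225 was a member only through the control groups, where it was higher. For 12 of the 26 called members the cold libraries were all below the control libraries over both experiments together. The calls rest on the same libraries, and the share over all genes was not counted. This count therefore only describes the called members.

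**Figure D3:**
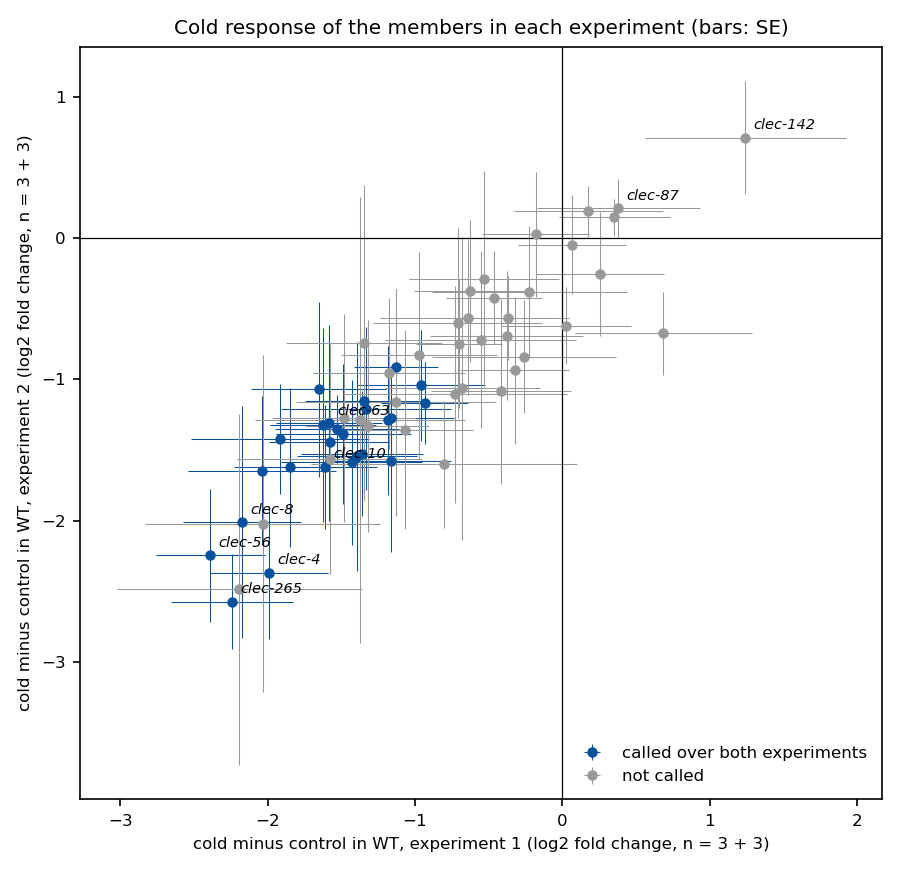
Log2 fold change of WT cold over WT control in experiment 1 (horizontal) and experiment 2 (vertical) for the 61 members fitted in both; points are members, bars are SE, and blue marks members called over both experiments. The blue points all lie in the lower left of the plot, and clec-142 and clec-87 lie in the upper right.

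Several members lie in runs on a chromosome. Neighbouring clec genes at most 20 kb apart were joined, and 6 runs held at least 3 members. For cold in WT, 10.4% of all genes tested were called lower and 54.7% had fitted values below 0. Of the 64 members tested, 26 were called lower and 60 were below 0. A sign shared within a run is therefore not read as a trait of that run. The run at 12893062 to 12906644 on chromosome II held clec-62, clec-63, clec-65 and clec-66, and 3 of the 4 fell in WT after cold; clec-62 had -1.38 ± 0.44 (adjusted p = 0.0563, edgeR). The run at 2823746 to 2855456 on IV held clec-80, clec-82, clec-83, clec-84 and clec-85, all 5 with fitted values below 0, and clec-84 (-1.53 ± 0.46, adjusted p = 0.0458) and clec-85 fell. The run at 14469231 to 14482317 on V held clec-57, clec-227, clec-56, clec-54 and clec-55, and of 4 tested all were below 0 and clec-57 and clec-56 fell. The longest run, at 3922165 to 4014235 on IV, held 12 clec genes and 8 members, and its members did not share a pattern: clec-67 fell in WT after cold, while clec-73 and clec-79 peaked in the libraries rich in sperm genes, as described further on. The run at 1245171 to 1274425 on IV had clec-170 called out of clec-166, clec-169 and clec-170, and the 3 members of the run at 10468202 to 10490537 on II, clec-143, clec-58 and clec-60, had too few counts to be tested.

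Intestinal genes moved with the family. Of 10 intestine markers 7 fell in WT after cold and 3 did not pass the test (median log2 fold change of the 10, -1.54), among them elt-2, the GATA factor that specifies intestinal genes (-1.14 ± 0.37, adjusted p = 0.0586, edgeR). The summed level of the 10 was 759 to 3813 CPM in WT cold and 2150 to 7229 CPM in WT control, with none at 0, and WT cold 5, where clec-63, clec-50 and clec-60 were high, had the highest cold sum. All 3 yolk genes, which the intestine expresses, fell as well, and their sum was 12078 to 47124 CPM in WT cold and 47732 to 84986 CPM in WT control. Of 6 hypodermis and cuticle markers 5 were tested and 3 fell; their sum was 207 to 943 CPM in WT cold and 189 to 2761 CPM in WT control, and 2 of the 6 were at 0 in some library. The part of these markers in the falls of the clec genes was not tested. Of 4 body muscle, 3 pharynx muscle, 5 neuron and 10 oocyte and germline markers none fell in WT after cold, and 1 neuron marker and 1 germline marker rose. Of the 47 sperm markers 25 were tested in WT and none was called, with 24 of the 25 fitted below 0.

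Most falls were also called without the libraries rich in sperm genes. Without WT cold 2 and WT control 1, 18 members were called, with 10.9% of all genes called, and 17 of the 18 were among the 26. clec-49, clec-50, clec-63, clec-65, clec-84, clec-170, clec-205 and clec-210 then missed the threshold, with fitted values between -0.91 and -1.57 and an adjusted p of at most 0.096, and clec-225 was not tested (edgeR).

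Of 30 known regulators of gut defence genes 29 had enough counts to be tested in WT, and 3 rose and 2 fell after cold, where 2.7% of all genes rose and 10.4% fell; 5 of 29 is read as no more than near the 13.1% of all genes called. zip-10, a bZIP factor known from cold-shocked worms, had 20.7, 28.6 and 74.1 CPM in WT cold, against 1.85, 2.34 and 8.03 CPM in WT control (log2 fold change 3.34 ± 0.50, adjusted p = 0.00153, edgeR). vhp-1, a phosphatase that acts against the p38 and JNK kinases, had 53.3, 70.4 and 155 CPM in WT cold, against 14.7, 26.3 and 34.2 CPM in WT control (1.69 ± 0.32, adjusted p = 0.00515, edgeR). In both genes every cold library was above every control library. tir-1, the adaptor at the head of the p38 pathway, rose as well (1.30 ± 0.34, adjusted p = 0.0251), but missed the threshold without WT cold 2 (adjusted p = 0.0539) and with upper-quartile factors (adjusted p = 0.0521).

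The regulators that fell were elt-7, an intestinal GATA factor (-1.45 ± 0.38, adjusted p = 0.0264), and hlh-30, the worm counterpart of TFEB (-1.01 ± 0.26, adjusted p = 0.0233, edgeR). Both calls were lost without WT cold 3, 4 or 6 or without WT control 2, 4 or 5, and that of elt-7 also without WT cold 1 or WT control 1, with an adjusted p of at most 0.0792. Without both WT libraries rich in sperm genes they were lost too (adjusted p = 0.0586 for elt-7 and 0.0582 for hlh-30). The kinases downstream of TIR-1 gave smaller fitted values that did not pass the test: nsy-1 -0.66 ± 0.21 (adjusted p = 0.0563), sek-1 0.15 ± 0.17 (adjusted p = 0.56) and pmk-1 0.19 ± 0.17 (adjusted p = 0.44). The transcription factor atf-7, on which p38 acts, had 0.11 ± 0.11 (adjusted p = 0.52, edgeR). None of the 29 was called in the other 4 comparisons.

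In the ire-1 strain no member passed the test for cold. Of 88 members tested over the 12 libraries of experiment 1, edgeR called 0, where 0.0558% of all 14344 genes were called; 11 had an unadjusted p under 0.05 (7.03% of all genes), 8 of them lower (4.72%) and 3 higher (2.31%), and DESeq2 called 2, clec-8 and clec-56, with 2.19% of all genes called by DESeq2. The fitted value was below 0 for 62 of the 88, against 54.2% of all genes, and the median was -0.31, against -0.04 for all genes. That median was -0.08 without ire-1 cold 3, -0.15 without ire-1 control 1 and -0.51 without ire-1 cold 2, where the median of all genes was 0.01, 0.02 and -0.14. Without the 4 libraries rich in sperm genes it was -0.39, against -0.03 for all genes. The libraries did not overlap and were lower in 16 members, against 9.33% of all genes tested, and higher in 4, against 4.52%: clec-58, clec-146, clec-178 and clec-221. The 4 of 88 are near the share of all genes. Of the 4, clec-58 was a member only through ire-1 cold, and clec-221 only through the cold groups. Among the 16, clec-71 was a member only through the control groups.

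The smallest p values for cold in ire-1 were those of clec-8, clec-56, clec-265 and clec-205. clec-8 had 0.841, 0.89 and 0.454 CPM in ire-1 cold, against 2.53, 2.77 and 2.04 CPM in ire-1 control (-1.73 ± 0.40, adjusted p = 0.16 by edgeR and 0.0033 by DESeq2). clec-56 had 8.27, 8.38 and 4.59 CPM in ire-1 cold, against 23.7, 17.1 and 15.3 CPM in ire-1 control (-1.39 ± 0.36, adjusted p = 0.20 by edgeR and 0.00388 by DESeq2). In both, the cold libraries were all below the control libraries. clec-265 had 6.68, 3.24 and 3.78 CPM in ire-1 cold, against 7.62, 17.9 and 8.91 CPM in ire-1 control (-1.33 ± 0.40, adjusted p = 0.28, edgeR), and clec-205 had 2.01, 1.29 and 1.06 CPM in ire-1 cold, against 4.51, 4.11 and 2.82 CPM in ire-1 control (-1.40 ± 0.43, adjusted p = 0.31, edgeR).

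clec-4, clec-50 and clec-63, which fell in WT, had fitted values near 0 or with an SE close to their size. They have some of the smallest p values for the difference between the cold responses, given below, so a weak response in ire-1 goes with that choice. Among others that fell in WT, clec-1, clec-10, clec-41, clec-57, clec-204 and clec-218 had every ire-1 cold library below every ire-1 control library (9.33% of all genes tested). clec-4 had 2.52, 3.64 and 1.97 CPM in ire-1 cold, against 2.16, 4.15 and 3.02 CPM in ire-1 control, and the groups overlapped (-0.17 ± 0.39, adjusted p = 1.0, edgeR). clec-50 had 97.6, 85.9 and 56.9 CPM in ire-1 cold, against 66.0, 131 and 82 CPM in ire-1 control (-0.20 ± 0.35, adjusted p = 1.0, edgeR). clec-63 had 390, 283 and 230 CPM in ire-1 cold, against 390, 481 and 342 CPM in ire-1 control (-0.43 ± 0.32, adjusted p = 1.0, edgeR). The summed intestine markers were 1285 to 2129 CPM in ire-1 cold and 1507 to 2385 CPM in ire-1 control, and none of the 10 was called.

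The difference between the cold responses of the strains was itself tested, as the interaction of strain and cold. edgeR called no member and DESeq2 none, with 7 members at an unadjusted p under 0.05, all of them higher in ire-1 (1.37% of all genes, and 1.21% higher); over all 14344 genes edgeR called 0.0%. The smallest unadjusted p values were those of clec-4 (1.89 ± 0.55, ire-1 minus WT on the log2 scale), clec-150 (1.11 ± 0.36), clec-50 (1.49 ± 0.50) and clec-63 (1.23 ± 0.45), each with an adjusted p of 0.996 by edgeR. The fitted value was above 0 for all but 16 of the 88 members, where 41% of all genes were below 0. The median over the members was 0.80, against 0.12 over all genes, and this median rested in part on single libraries: it was 0.29 without ire-1 cold 2, 0.37 without WT control 1 and 0.51 without all 4 libraries rich in sperm genes, where the median over all genes was -0.06 in each case. All 10 intestine markers and all 6 hypodermis and cuticle markers had fitted values above 0 for this difference (medians 1.16 and 1.49). The median was 1.65 for 43 sperm markers tested, 0.25 for the yolk genes and -0.26 for the oocyte and germline markers. For body muscle, pharynx muscle and neuron markers it was 0.07, -0.01 and 0.01. No marker was called, and their part in the clec values was not tested. That the falls passed the test in WT and not in ire-1 does not show that the strains differed, since 12 libraries entered the WT test and 6 the ire-1 contrast.

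Without cold, fitted values of the strain difference were mostly below 0, but no member passed the test. Between ire-1 control and WT control of experiment 1, 60 of 88 members had fitted values below 0, against 53.1% of all genes, and the median was -0.52, against -0.04. That median was -0.12 without WT control 2, -0.22 without WT control 1 and -0.72 without WT control 3, where the median of all genes was 0.11, 0.14 and -0.16. Without the 4 libraries rich in sperm genes it was -0.42, against 0.04 for all genes. edgeR called no member, with 0.0627% of all genes called, 0.0488% lower; 21 members had an unadjusted p under 0.05, 20 of them lower (12.1% and 9.33% of all genes), and DESeq2 called 3, clec-50, clec-150 and clec-178, with 2.56% of all genes called by DESeq2. The libraries did not overlap and were lower in ire-1 in 19 members, against 10.2% of all genes tested, and higher in 1, clec-221, against 4.43%. Among the 19, clec-126, clec-145 and clec-172 were members only through the WT groups, where they were higher.

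The clearest of these differences was that of clec-150. It had 56.7, 81.9 and 63.6 CPM in ire-1 control, against 191, 268 and 159 CPM in WT control of experiment 1, with every ire-1 library below every WT library (-1.67 ± 0.26, adjusted p = 0.0652 by edgeR and 4.1e-06 by DESeq2). clec-50 had 66.0, 131 and 82 CPM in ire-1 control, against 186, 441 and 200 CPM in WT control (-1.63 ± 0.36, adjusted p = 0.17 by edgeR and 0.00934 by DESeq2). clec-178 (IV, 5653949 to 5655003) had 0.853, 0.654 and 0.863 CPM in ire-1 control, against 3.41, 2.16 and 1.52 CPM in WT control (-1.65 ± 0.45, adjusted p = 0.19 by edgeR and 0.0279 by DESeq2). Neither gene showed an overlap.

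Libraries of the strains with the same replicate number varied together within a condition, so the strains were also compared within pairs of the same number and condition, and this blocked fit called 5 members in the control. Over all genes it called 2.72%, against 0.0627% without the block. The members called were clec-50 (-1.57 ± 0.19, adjusted p = 0.00504), clec-150 (-1.65 ± 0.21, adjusted p = 0.0056), clec-210 (-2.19 ± 0.43, adjusted p = 0.0317) and clec-97 (-0.93 ± 0.22, adjusted p = 0.0477), all lower in ire-1, and clec-78 (2.34 ± 0.51, adjusted p = 0.0423), higher in ire-1, all by edgeR. clec-210, clec-97 and clec-78 were chosen after their values were seen. clec-78 had 0.396, 3.42 and 5.88 CPM in ire-1 control, against 0.196, 0.36 and 1.09 CPM in WT control, so its groups overlapped. All 10 intestine markers also had fitted values below 0 for this comparison, with a median of -0.84 and none called, and their sum was 1507 to 2385 CPM in ire-1 control and 2682 to 6806 CPM in WT control of experiment 1; their part in the lower clec levels was not tested.

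After cold, the strain difference went in both directions. Between ire-1 cold and WT cold of experiment 1, edgeR called no member, with 0.0139% of all genes called; 14 members had an unadjusted p under 0.05 (7.65% of all genes), 9 of them higher in ire-1 (1.83%) and 5 lower (5.82%), and DESeq2 called 1, clec-4, with 0.419% of all genes called by DESeq2. The libraries did not overlap and were higher in ire-1 in 11 members, against 5.08% of all genes tested: clec-3, clec-4, clec-41, clec-52, clec-60, clec-62, clec-67, clec-70, clec-72, clec-78 and clec-265. They were lower in 5, against 7.42%: clec-82, clec-91, clec-126, clec-145 and clec-218. Of these genes, clec-3 and clec-72 were members only through the ire-1 groups, and clec-82, clec-126 and clec-145 only through the WT groups. The fitted value was below 0 for 37 of 88 members, against 43.5% of all genes, and the median was 0.11, against 0.07. Without the 4 libraries rich in sperm genes the median was 0.07, against 0.01 for all genes.

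clec-4 had 2.52, 3.64 and 1.97 CPM in ire-1 cold, against 0.836, 0.631 and 0.72 CPM in WT cold of experiment 1 (1.87 ± 0.40, adjusted p = 0.55 by edgeR and 0.00273 by DESeq2). clec-3 (II, 3017468 to 3019907) had 1.87, 0.647 and 0.958 CPM in ire-1 cold, against 0.334, 0.245 and 0.152 CPM in WT cold (2.17 ± 0.63, adjusted p = 0.61, edgeR). Every ire-1 library stood above every WT library in both genes. However, clec-3 was a member only through the ire-1 groups, with means of 1.16 CPM in cold and 0.54 CPM in control. Its WT means were 0.173 and 0.23 CPM. clec-72 (IV, 3944816 to 3947362) and clec-52 followed with 1.87 ± 0.55 and 1.65 ± 0.54, each with an adjusted p of 0.61 by edgeR. Markers of muscle and of hypodermis and cuticle also had higher values in ire-1 cold, most of all in ire-1 cold 2. All 3 yolk genes had fitted values below 0 in this comparison (median -0.44), as did 4 of 10 oocyte and germline markers. Of the 10 intestine markers only 1 was below 0 (median 0.29), and of 43 sperm markers tested 0 were (median 1.66). Of 5 neuron markers 2 were below 0 (median 0.18). The pharynx muscle markers were higher in ire-1 without cold too, with a median log2 difference of 3.53 in control and 3.46 in cold. The summed pharynx muscle markers were 12.5, 180 and 14.2 CPM in ire-1 cold, against 3.55, 14.6 and 2.35 CPM in WT cold, and the summed body muscle markers were 1813, 5413 and 1798 CPM in ire-1 cold, against 1700, 3163 and 1710 CPM in WT cold. The summed hypodermis and cuticle markers were 549, 998 and 577 CPM in ire-1 cold, against 408, 943 and 463 CPM in WT cold, and all 6 had fitted values above 0 (median 2.35) with none called. Their part in these differences was not tested.

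In both conditions of experiment 1, ire-1 libraries were below WT libraries without overlap in 3 of 88 members, clec-126, clec-145 and clec-218, against 3.51% of all genes tested, and above in none, against 0.83%. The 3 members are near the share of all genes, so the count is not read as a result about the family. clec-126 and clec-145 were members only through the WT groups, where they were higher. clec-145 (II, 13588776 to 13590561) had 0.187, 0.364 and 0.202 CPM in ire-1 cold, against 0.711, 0.736 and 1.06 CPM in WT cold. In the control it had 0.122, 0.192 and 0.471 CPM in ire-1, against 0.587, 2.61 and 1.09 CPM in WT. Its log2 differences were -1.73 ± 0.68 in cold and -2.48 ± 0.69 in control (adjusted p = 0.61 and 0.197, edgeR), and 226 of its 1357 exon bases overlap Y48E1B.8 on the opposite strand, so reads of the 2 genes may not be told apart.

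clec-218 (V, 8307942 to 8310766), whose strain values were looked at after they were seen, had 2.71, 11.7 and 11.1 CPM in ire-1 cold, against 14.8, 14 and 22.7 CPM in WT cold. It had 21.2, 15.5 and 24.2 CPM in ire-1 control, against 72.4, 26.7 and 56.8 CPM in WT control. The log2 differences were -1.03 ± 0.55 in cold and -1.43 ± 0.55 in control, with adjusted p of 0.731 and 0.321 (edgeR).

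**Figure D4:**
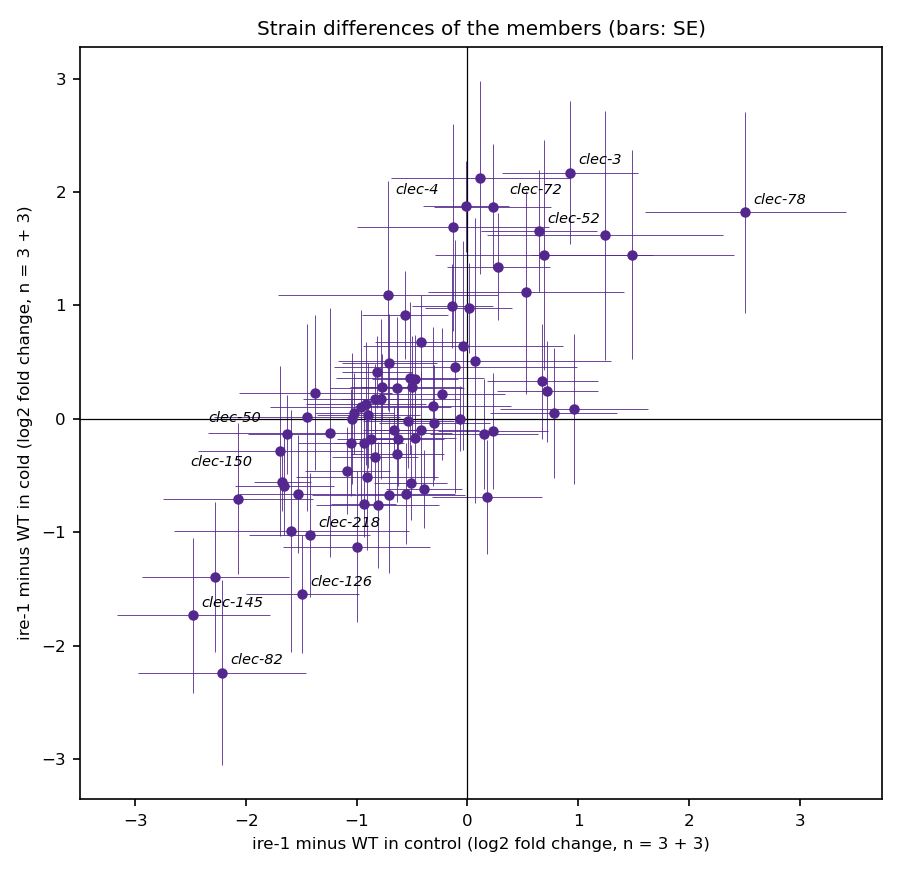
Log2 difference, ire-1 minus WT, in control (horizontal) and in cold (vertical) for 79 of the 88 members tested in experiment 1; the other 9, with an SE of 1.5 or more, are not drawn. Points are members and bars are SE. clec-145, clec-126, clec-218 and clec-82 lie below 0 on both axes, and clec-4, at -0.01 in control and 1.87 in cold, lies on the vertical line.

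Some members were highest in the same 4 libraries whatever the group. Of the 88 members tested in experiment 1, 8 (9.09%) were higher in each of ire-1 cold 2, ire-1 control 1, WT cold 2 and WT control 1, the libraries rich in sperm genes, than in any of the other 14 libraries: clec-73, clec-79, clec-117, clec-119, clec-123, clec-153, clec-160 and clec-175. Over all 14344 genes 10.7% showed this pattern, so the share among the members was no higher than among all genes. clec-123 had 27.4 CPM in ire-1 control 1, 22.1 in ire-1 cold 2, 14.1 in WT control 1 and 3.82 in WT cold 2, against 0.0615 to 1.11 CPM in the other 14 libraries. clec-73 had 27.2, 21.9, 14.4 and 3.33 CPM in the same libraries, against 0 to 1.58 CPM, and clec-79 had 19.9, 17.7, 12.8 and 4.1 CPM, against 0.0615 to 1.7 CPM.

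WT cold 2 was the lowest of the 4 for 7 of the 8 members, as it was for the summed sperm markers, and only clec-160 was highest there, at 15.4 CPM against 12.3 to 15.3 CPM in the other 3. clec-117, clec-119, clec-153 and clec-175 had medians of 0.0665, 0.337, 0.0459 and 0.0559 CPM over the other 14 libraries. They were members only through these 4 libraries. Of the 47 sperm genes, 46 had counts, and 29 had no count in at least 1 library. What these members share with the sperm genes was not tested beyond this pattern.

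**Figure D5:**
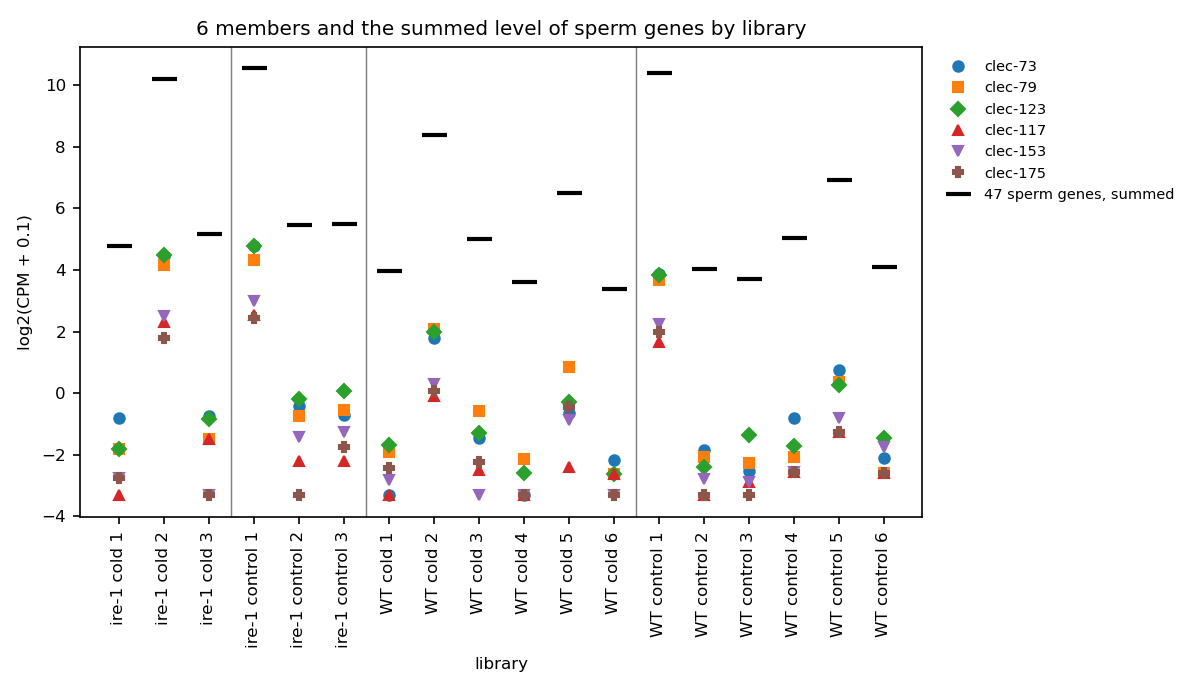
Levels of clec-73, clec-79, clec-123, clec-117, clec-153 and clec-175 (coloured symbols) and the summed level of 47 sperm genes (black bars) in the 18 libraries, as log2(CPM + 0.1). The 6 members and the sperm genes are all highest in ire-1 control 1, ire-1 cold 2 and WT control 1, with WT cold 2 next.

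The annotation limits the reading of some members. Exons of 16 members overlap exons of another counted gene. clec-85 shares 397 of its 1434 exon bases with Y54G2A.40 on the same strand, and clec-87 shares 138 of 960 with iars-2 on the opposite strand, while clec-88 and clec-91 share 7 and 16 bases with other genes. The strand setting of the counting is not given in the sources used here. Members in runs may also be similar in sequence, and how reads that match several members were counted is not stated, so values of near-identical members are uncertain.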

How the data were processed

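RNA of whole worms was sequenced in 18 libraries, and the authors deposited whole-number counts of reads per gene, not normalized, 1 column per library. Per the submitters' processing notes, bcl2fastq, STAR 2.5.0a and HTSeq were used with the build WBcel235; which annotation was counted, and with which strand setting, is not given in the sources used here. Gene symbols and coordinates were read from Ensembl release 115 (WBcel235). The members, the gene lists and the tests were chosen with earlier results of these data known.

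CPM were computed from library sizes scaled by TMM over the 18 libraries. The quasi-likelihood test of edgeR 4.0.16 (R 4.3.3) was run on the whole table after TMM scaling and a filterByExpr filter (minimum count 10, minimum total 15). Benjamini-Hochberg adjustment covered every gene tested in a comparison, with a threshold of 0.05. The fit for cold in WT used the 12 WT libraries and an experiment term. Cold in ire-1, the difference of the cold responses and the strain differences in control and in cold are contrasts of 1 fit to the 12 libraries of experiment 1, and these 4 share libraries. A gene is called lower or higher without overlap when all libraries of a group lie beyond all of the other, for cold in WT within each experiment. The procedure was run on simulated counts drawn independently for each library. Those counts held no libraries rich in sperm genes and none that varied together, so that run does not cover these features of the data.

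Members were named by rule: the 12 lowest falls among called members with at least 5 CPM in the higher group, the 8 most abundant members, an infection list of 13 genes, the 4 smallest p values of each other comparison, the 6 with the highest ratio of highest to median library, and those nearest the membership limit. Members named because of a lost call, a non-overlap or a chromosomal run were chosen after their values were seen.

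Within a condition, libraries of the strains with the same replicate number correlated after group means were removed (0.327 to 0.888, 6 of 6 above 0.1). The 6 correlations are not independent. The main strain comparisons did not use these pairs, and a fit blocked by pair was run as an alternative setting. With 3 libraries per group, the libraries rich in sperm genes, which share a number within a condition, also move the other values. Cold and control libraries of WT with the same number gave mixed values: -0.746, -0.647 and 0.203 for numbers 1 to 3, and -0.0233, 0.652 and 0.62 for numbers 4 to 6. This pairing comes from the data, not from the labels. No 2 libraries of a group agreed within sampling noise (chi-square per degree of freedom at least 11).

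Alternative settings were other size factors (RLE, upper quartile), DESeq2 1.42.0 in place of edgeR, no filter, replicate blocks, no experiment term, each experiment alone, fits of 2 groups alone, and leaving out libraries. At these depths 1 CPM stands for at least 10 reads.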

Additional observations from a re-analysis of the deposited data

Results flagged for a closer look

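Among 84 groups of 6 WT libraries, 1 for each named member in WT cold and in WT control, 20 had 1 library far from the other 5 by Dixon's gap test at 95%, where chance gives about 1 in 20. That rate is no yardstick for this count, since 9 of the 20 came from the 6 members named for a high ratio of highest to median library. All 20 lay in 3 libraries, 8 in WT cold 5, 3 in WT cold 2 and 9 in WT control 1.

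WT cold 5 stood above the other WT cold libraries for clec-63 (552 CPM against 110 to 242), clec-50 (192 against 39.8 to 89.8), clec-65 (65.1 against 16 to 30.5), clec-60 (5.62 against 0 to 0.245), clec-205 (4.64 against 1.58 to 2.0), clec-82 (3.84 against 0 to 0.776), clec-8 (2.86 against 0.43 to 1.23) and clec-52 (1.96 against 0.123 to 0.53). The summed intestine markers were also highest there, at 3813 CPM against 759 to 1662 CPM in the other WT cold libraries.

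WT cold 2 stood above the other WT cold libraries for clec-123 (3.82 CPM against 0.0615 to 0.714), clec-73 (3.33 against 0 to 0.535) and clec-117 (0.841 against 0 to 0.0892). WT control 1 stood above the other WT control libraries for clec-123 (14.1 against 0.0901 to 1.11), clec-73 (14.4 against 0.0725 to 1.58), clec-79 (12.8 against 0.065 to 1.19), clec-153 (4.62 against 0.0363 to 0.474), clec-175 (3.84 against 0 to 0.316) and clec-117 (3.05 against 0 to 0.316). These are 2 of the 4 libraries rich in sperm genes. WT control 1 was also apart for clec-1 (168 against 48.2 to 82.6), clec-41 (99.9 against 46.1 to 59.3) and clec-86 (4.66 against 0.271 to 1.11); clec-1 and clec-41 were called for cold in WT without this library too.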

How the results depend on the processing

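For cold in WT, 26 members were called, and each left-out library gave 15 to 36 (6.92% to 21.2% of all genes, against 13.1%). The number was 25 with RLE and 26 with upper-quartile factors, 26 without a filter, 35 with DESeq2, 32 with a replicate block, 24 without the experiment term and 18 without the libraries rich in sperm genes. The share of all genes called moved too, so these counts are not directly comparable. That share was 13.4% with RLE, 13.2% with upper-quartile factors and 6.33% without a filter. It was 18.1% with DESeq2, 12.8% with the replicate block and 10.9% without the libraries rich in sperm genes. The number of members called was 0 in experiment 1 alone, 1 in experiment 2 alone, where fewer libraries entered, and 44 without WT cold 5 and WT control 6 together; over all genes these last 3 settings called 0.0239%, 0.425% and 27.8%. The cause was not tested. clec-210 missed the threshold with RLE (adjusted p = 0.0618), without a filter (0.111), with the replicate block (0.0573) and without the experiment term (0.0614), clec-170 without a filter (0.0556) and clec-65 without the experiment term (0.0503). clec-150 passed it with the replicate block (-0.81, 0.0146) and clec-70 with DESeq2 (0.0467). Over all genes edgeR called 1545 of 11766 tested in this comparison, and DESeq2 2784 of 15371 with an adjusted p. Upper-quartile factors put the median of all genes at -0.18, against -0.07 with TMM, and the median of the members at -1.27, against -1.17. For the strains in control, RLE put the median of all genes at 0.12 and of the members at -0.34.

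For cold in ire-1, DESeq2 called 2 members and all other settings 0. For the strains in control edgeR called 0 (0.0627% of all genes), DESeq2 3 (2.56%) and the block for each replicate number within each condition 5 (2.72%). Leaving out a library gave 0 to 1, where the 1 was clec-150. It was called by edgeR without WT cold 1 (adjusted p = 0.038, with 0.0805% of all genes called) or without WT control 3 (adjusted p = 0.0315, with 0.323%). For the strains in cold DESeq2 called 1 and all other settings 0, and for the difference of the cold responses all settings gave 0. For the strain comparisons the block changed no other call. Fitted values changed sign when a library was left out for clec-91 in WT (range -0.0226 to 0.3686) and in ire-1 for clec-4 (-0.5154 to 0.0745; 0.0292 without ire-1 cold 3), clec-50 (-0.3929 to 0.1077; 0.0054 without ire-1 cold 3) and clec-67 (-0.7386 to 0.0285), none of them called. The number of libraries limits the strain comparisons, and members near 1 CPM are limited by counts as well.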
